A study of Mus musculus with 20 samples.

Results

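The complement genes C3, C4b, C6, C8a, C8b, C9, Cfb, Cfi and Mbl2 were followed in liver and kidney of mice given the chemical reprogramming mixture 7c. They are 9 of the 57010 genes in the deposited count table, chosen by symbol and matched to their Ensembl identifiers, and each was read in all 20 libraries. The mice were male UM-HET3, a genetically heterogeneous stock in which littermates differ in their alleles, and were 12 months old at the start. For 28 days a pump under the skin delivered either the vehicle, 50% DMSO and 50% PEG300, or the same vehicle with repsox, tranylcypromine, DZNep, CHIR99021, forskolin and TTNPB at 0.1 mg/kg/day each and valproate at 1 mg/kg/day. The groups were 7c liver (n = 6), vehicle liver (n = 4), 7c kidney (n = 6) and vehicle kidney (n = 4). All mice had the surgery and the solvent, so neither could be compared with its absence, and the labels do not say that a liver and a kidney of the same number came from the same mouse.

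Complement is a set of plasma proteins that mark and lyse microbes and clear dying cells. Recognition proteins such as mannose-binding lectin start a chain of proteases that cleaves C4 and then C3, factor B amplifies C3 cleavage through the alternative pathway, factor I degrades the active fragments, and C6, C8 and C9 join C5b and C7 in the membrane attack complex. Hepatocytes make most of these proteins for the blood, while kidney cells, macrophages and adipocytes can also make some of them locally.

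The 9 mRNAs took about 1% of the liver transcriptome and far less of that of the kidney. Their share was 0.956 to 1.35% of all counts in a liver library (median 1.10%) and 0.0119 to 0.0204% in a kidney library. C3 alone held 56.2 to 66.6% of the 9 genes' counts in liver and 19.6 to 40.2% in kidney. Library totals ran from 28383359 to 34153084 counts in liver (lower in all 6 7c libraries than in any vehicle library) and from 27855849 to 64872451 in kidney, where 7c replicate 1 was the deepest. The levels below are CPM, counts relative to the library total after scaling by the trimmed mean of M-values (TMM) within a tissue, so these totals are divided out. The tissue labels fitted their markers: the summed level of 10 kidney tubule and segment markers was 38009 to 74376 CPM in kidney and at most 1.76 CPM in liver. In bulk tissue, fewer cells of a type and less RNA per cell cannot be told apart.

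**Figure D1:**
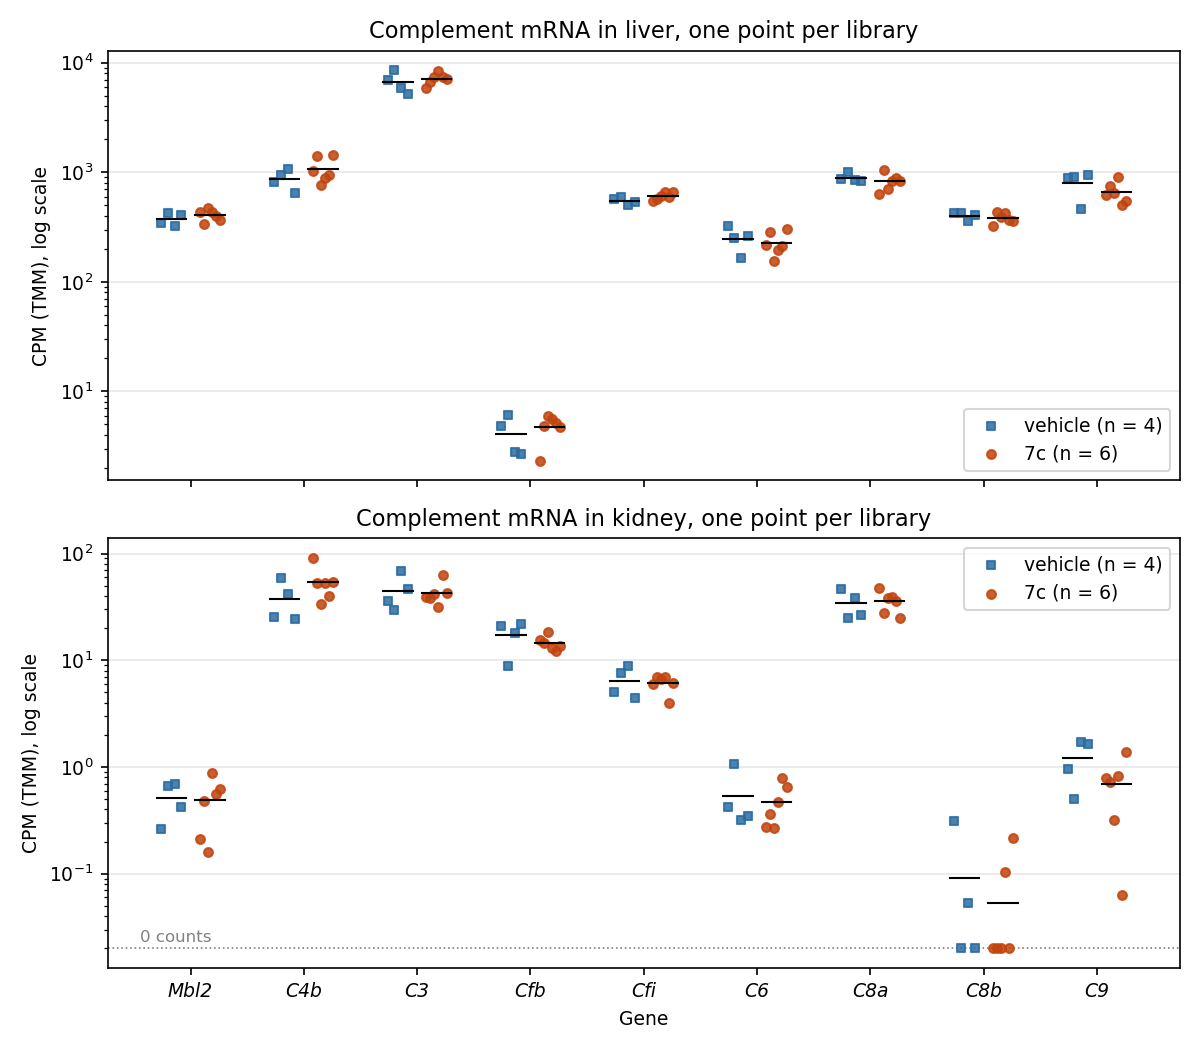
Level of each complement mRNA in liver (upper panel) and kidney (lower panel), in CPM on a log axis; each point is 1 library, squares are vehicle (n = 4), circles are 7c (n = 6), and the black line is the group mean. Libraries without a count are drawn on the dotted line. The 7c and vehicle points overlap for every gene, and all genes but Cfb sit far lower in kidney than in liver.

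Sequence upstream of the start site was printed for 4 members, since C8a and C8b encode chains of 1 protein yet separated in kidney, and C3 and C9 are the most abundant central and terminal members per length in liver. RefSeq's table of start sites (assembly GRCm38.p6) held 6 of the 9 members, and each 250-base window before the start matched GRCm39 at 1 place; only the bases upstream of every annotated exon are shown, 5′ to 3′ on the gene's strand, with the motifs found in capitals.
C3, chr17:57535156-57535386, minus strand: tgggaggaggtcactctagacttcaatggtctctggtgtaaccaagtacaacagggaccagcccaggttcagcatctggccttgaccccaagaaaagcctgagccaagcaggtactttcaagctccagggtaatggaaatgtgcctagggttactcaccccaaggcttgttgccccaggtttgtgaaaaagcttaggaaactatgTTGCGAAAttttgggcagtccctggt
C9, chr15:6474577-6474794, plus strand: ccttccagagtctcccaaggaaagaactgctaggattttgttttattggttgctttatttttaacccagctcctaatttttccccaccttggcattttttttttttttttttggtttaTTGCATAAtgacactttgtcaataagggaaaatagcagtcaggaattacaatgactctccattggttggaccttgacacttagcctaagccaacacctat
C8a, chr4:104733615-104733845, minus strand: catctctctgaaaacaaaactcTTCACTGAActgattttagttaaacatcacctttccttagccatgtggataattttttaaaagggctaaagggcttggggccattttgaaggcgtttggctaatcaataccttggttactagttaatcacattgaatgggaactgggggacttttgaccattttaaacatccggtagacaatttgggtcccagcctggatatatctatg
C8b, chr4:104623264-104623327, plus strand: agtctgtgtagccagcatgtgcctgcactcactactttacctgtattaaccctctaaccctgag
The windows were searched on both strands for TTGCNNAA, the core bound by C/EBP factors, TGTTTGC, a FOXA core, CAAAGTCCA, an HNF4 site, and TTCNNNGAA, a STAT site; no match overlapped another in the printed bases. C3 and C9 each held TTGCNNAA, at -45 and -132 from the start, and 9.56% of all 32851 windows in the table hold it. C8a held TTCNNNGAA at -228 (7.02% of windows), and C8b held TGTTTGC at 2 places nearer its start, outside the bases printed here (4.30% of windows). A match says only that these letters are present.

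Liver and kidney differed in each of the 8 members with at least 10 counts in 50% of the libraries of both tissues, by edgeR's quasi-likelihood test with Benjamini-Hochberg adjustment, and of these Cfb was the one higher in kidney. C8b reached this minimum only in the livers, where it is high, so its difference is described by its counts and its test is not read as a result. Over all 16907 genes tested, 72.4% passed in either direction, 35.0% higher in liver and 37.4% higher in kidney, and 74.1% had an unadjusted p under 0.05. These 8 calls and their directions held under each alternative fit, and also with the 8 vehicle libraries alone.

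Mbl2 encodes mannose-binding lectin C, which recognises sugars on microbes and starts the lectin pathway. Vehicle livers held 321, 348, 408 and 425 CPM of Mbl2 and 7c livers 339, 368, 398, 435, 437 and 468 CPM. Every kidney held under 1 CPM, 0.160 to 0.880, so no kidney came near the lowest liver. The fitted difference was 10.25 ± 0.272 (log2, SE, adjusted p = 1.23e-18). Its paralog Mbl1 kept more of its liver level in kidney, 2.00% against 0.0810% for Mbl2.

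C4b encodes complement C4, which the classical and lectin proteases cleave first, and C3 is the protein on which all pathways converge. Vehicle livers held 651, 821, 947 and 1064 CPM of C4b and 7c livers 773, 889, 940, 1037, 1402 and 1438 CPM. Kidneys held 24.4 to 91.1 CPM of C4b, which was 5.06 ± 0.237 lower (log2, SE, adjusted p = 1.83e-14). C3 was at 5151, 5843, 6982 and 8534 CPM in vehicle livers and at 5818, 6659, 7171, 7360, 7453 and 8407 CPM in 7c livers. In kidney C3 ranged from 29.3 to 68.0 CPM, a difference of 7.93 ± 0.217 (adjusted p = 1.94e-18).
The 2 central genes thus kept different shares of their liver level in kidney, 0.403% for C3 and 3.06% for C4b. Of the canonical C4b transcript, 16.3% of all 100-base stretches also occur in C4a, its neighbour on chromosome 17, so some C4b and C4a reads could not be told apart. C4a was at 99.8 to 539 CPM in liver and 26.9 to 130 CPM in kidney.

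Cfb encodes factor B, the protease of the alternative pathway convertase, and Cfi encodes factor I, which cuts C3b and C4b. Vehicle livers held 2.69, 2.81, 4.82 and 6.10 CPM of Cfb and 7c livers 2.33, 4.77, 4.79, 5.13, 5.62 and 5.98 CPM. Vehicle kidneys held 8.74, 18.1, 20.7 and 22.0 CPM and 7c kidneys 12.2, 12.9, 13.6, 14.4, 15.5 and 18.4 CPM. On these values, scaled within each tissue, the lowest kidney lay above the highest liver, but single libraries were not compared on a shared scale. With both tissues scaled together, Cfb averaged 5.62 CPM in liver and 12.5 CPM in kidney. Cfb was the only member higher in kidney, by 1.20 ± 0.195 (log2, SE, adjusted p = 1.03e-05 by edgeR).
The Cfb values are partial. In GENCODE vM39, 65.7% of its 3420 exon bases are shared on the same strand with the read-through gene Gm20547, which had 0 counts in every library, and 49.8% lie opposite exons of Nelfe. Only 1174 bases are outside any other gene on its strand, so how many of its reads were left uncounted is not known, and its level can be compared between libraries but not directly with other genes. No other member shared exon bases on its strand, and antisense overlap was 4.42% for Cfi and 0 for the rest.
Cfi was among the steadiest members, at 505, 532, 576 and 597 CPM in vehicle livers and 548, 568, 593, 608, 662 and 664 CPM in 7c livers. In kidney it ranged from 4.01 to 8.77 CPM, lower by 7.16 ± 0.161 (log2, SE, adjusted p = 1.26e-19).

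Among the terminal genes, C6 joins C5b, C8a and C8b encode the alpha and beta chains of C8, and C9 forms the ring of the pore. C6 was at 165, 249, 260 and 320 CPM in vehicle livers and 154, 194, 214, 219, 284 and 305 CPM in 7c livers, against 0.267 to 1.06 CPM in kidney. C9 was at 467, 891, 896 and 935 CPM in vehicle livers and 501, 549, 620, 643, 755 and 912 CPM in 7c livers, against 0.0626 to 1.71 CPM in kidney. Both were far lower in every kidney than in any liver, by 9.53 ± 0.287 for C6 and 10.26 ± 0.384 for C9 (log2, SE, adjusted p = 8.68e-18 and 3.62e-16).
The C8 chains, whose genes lie end to end on chromosome 4 (C8b at chr4:104623328-104662573 on the plus strand, C8a at chr4:104672876-104733614 on the minus strand, GRCm39), behaved differently. In liver C8a was at 825, 843, 860 and 1008 CPM with vehicle and 632, 697, 837, 841, 892 and 1060 CPM with 7c, and C8b was at 359, 404, 421 and 422 CPM with vehicle and 323, 363, 364, 390, 425 and 436 CPM with 7c. Per exon length the counts of C8a were 1.79 times those of C8b over the livers, and 1.47 to 2.01 times in single livers. In kidney C8a kept 25.0 to 47.6 CPM in every library, with 14087 counts in all, while C8b had 27 counts in all, namely 12 and 2 in 2 vehicle kidneys, 9 and 4 in 2 7c kidneys and 0 in the other 6. The ratio per length in the summed kidneys was 428. With 1 kidney left out it ran from 333, without 7c replicate 1, to 674, without vehicle replicate 1, which held 12 of the 27 C8b counts. In the 4 kidneys with any C8b count the lowest ratio was 95.2. C8g, which encodes the third chain and is on another chromosome, was at 17.8 to 38.4 CPM in kidney and 366 to 593 CPM in liver, so 2 of the 3 chains had their mRNA in kidney. C8a fell by 5.25 ± 0.167 from liver to kidney and C8g by 4.84 ± 0.185 (log2, SE, adjusted p = 2.24e-17 and 5.12e-16).

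**Figure D2:**
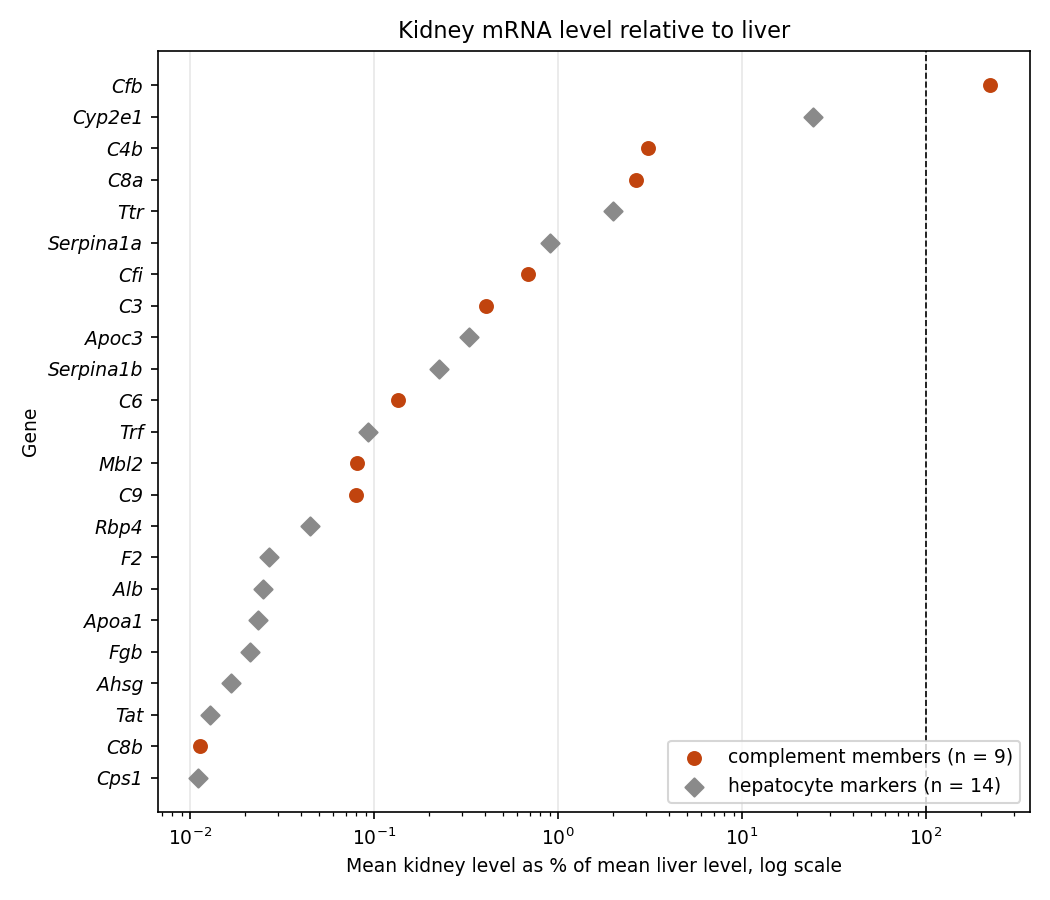
Mean kidney level as a percent of the mean liver level (log axis, both tissues scaled together) for the 9 complement members (circles) and 14 hepatocyte marker genes (diamonds), ordered by value; the dashed line marks equal levels. C8b sits at 0.0113%, among the lowest hepatocyte markers, C8a and C4b near 3%, and Cfb at 223%.

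Set against genes of hepatocytes, the members fell into a wide range. The kidney level was 0.0113% of the liver level for C8b, 0.0800% for C9, 0.0810% for Mbl2, 0.135% for C6, 0.403% for C3, 0.688% for Cfi, 2.65% for C8a, 3.06% for C4b and 223% for Cfb. Of 14 hepatocyte markers, 9 were under 0.1%, among them Alb (albumin) at 0.0248% and Apoa1 at 0.0233%. Ttr (transthyretin) was at 1.99%. C8b lay within the range of the lowest markers, C8a and C4b lay above every marker but Cyp2e1 (24.2%), and Cfb lay above all 14. Whether liver RNA reached the kidney libraries was not tested.

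Per length, C3 was the most abundant member in liver. In RPKM, which is CPM per kilobase of exon, its liver level was 1339 ± 213 (SD, n = 10 libraries), followed by C9 at 250 ± 63.9, Cfi at 242 ± 21.2, Mbl2 at 203 ± 25.0, C8a at 201 ± 29.8, C4b at 164 ± 42.0, C8b at 112 ± 10.7 and C6 at 55.3 ± 13.3. Cfb, of which an unknown share of reads went uncounted, was at 1.32 ± 0.408 over its whole length and was not ranked. By an exact sign-flip permutation test over the 10 libraries, adjusted over 8 neighbouring pairs, C9 and Cfi did not differ beyond their spread (p = 0.932), nor did Mbl2 and C8a (p = 0.932), and 4 of the other neighbours without Cfb did (adjusted p = 0.00625 or less). C8a and C4b (adjusted p = 0.0365 by the same exact permutation test) are not put in order, since reads that C4b shares with C4a may not have been counted. The order in both tissues depends on the length used, which was all exon bases of a gene together. The longest transcript is shorter for C9 (2089 against 2870 bases), Cfi (2182 against 2423) and Mbl2 (1728 against 1940), but close for C8a (4225 against 4228). The order by that length is not given here.
In kidney the upper members were close: C3 at 8.41 ± 2.42, C8a at 8.29 ± 2.02 and C4b at 7.82 ± 3.23 RPKM. Neither of these neighbouring pairs passed the same test (exact permutation, adjusted p = 0.959 and 0.659). Cfi was at 2.58 ± 0.603 and differed from C9 at 0.311 ± 0.191 (adjusted exact permutation p = 0.00521). C9 and Mbl2, at 0.256 ± 0.121, did not differ beyond their spread (exact permutation, adjusted p = 0.959), and C6 at 0.116 ± 0.0604 and C8b at 0.0198 ± 0.0321 closed the order (adjusted exact permutation p = 0.00521 for each step). Cfb was at 4.58 ± 1.20 over its whole length and at 13.3 ± 3.50 over its 1174 unshared bases alone, where it was at 3.84 ± 1.19 in liver. Its place among the kidney members is therefore not known.

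The 7c mixture was compared with vehicle in each tissue to ask whether complement transcription moved with treatment. No member passed the threshold in liver, 0 of 9, where 1 of 15012 genes did (0.00666%). The log2 differences, 7c minus vehicle with SE, were 0.12 ± 0.114 for Mbl2, 0.31 ± 0.187 for C4b, 0.11 ± 0.142 for C3, 0.22 ± 0.298 for Cfb and 0.14 ± 0.0899 for Cfi. For the terminal genes they were -0.12 ± 0.197 for C6, -0.10 ± 0.132 for C8a, -0.07 ± 0.0999 for C8b and -0.27 ± 0.198 for C9. All 4 terminal genes had lower means with 7c and all 5 others had higher means. Every one of these differences had an adjusted p of 1.00 by edgeR. Over all 15012 genes tested, 7563 had higher and 7449 lower means. The split held for the members only: 3 of 4 further central and terminal components had higher means and 5 of 6 other lectin genes lower ones. With 1 library left out, the C6 difference reached 0.0237. No member had an unadjusted p under 0.05, which 3.76% of all genes had. DESeq2, limma-voom and the likelihood ratio test also called 0 of the 9. The smallest of the 9 exact two-sided permutation p-values in liver was 0.105, for Cfi, of which 3 of 6 7c livers lay above the vehicle range.

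**Figure D3:**
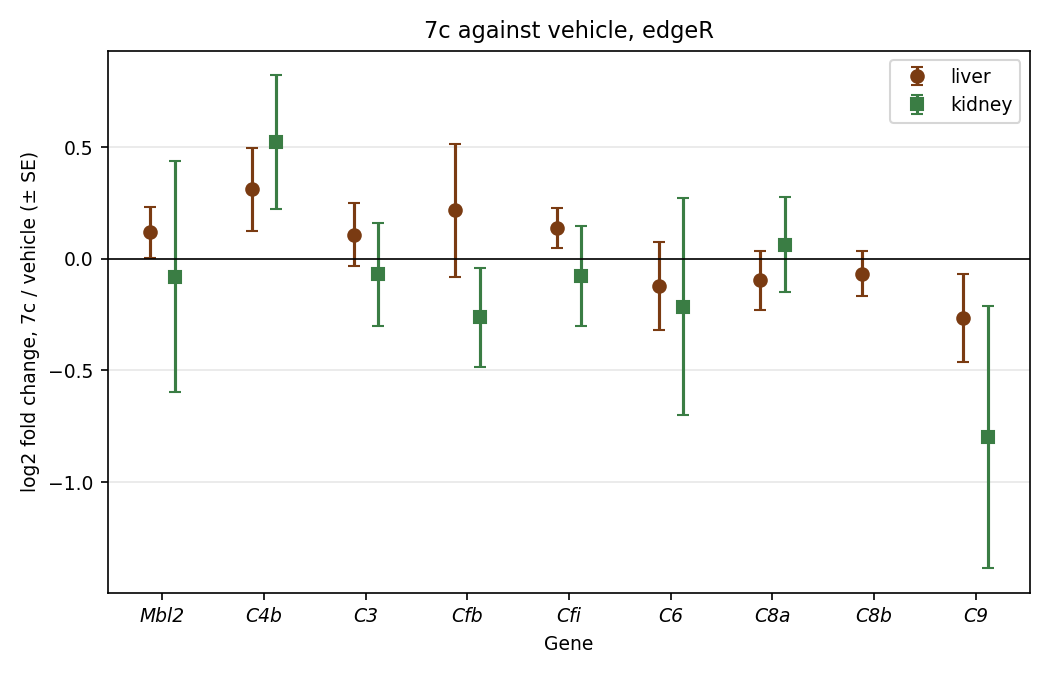
Difference between 7c and vehicle for each complement gene on the log2 scale (points, with bars of 1 SE from edgeR's fit) in liver (circles) and kidney (squares); the line at 0 is no difference. C8b has no kidney point because it was too low to be tested, and no point passed the threshold.

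In kidney 8 members were tested, since C8b fell below the minimum of 10 counts in 50% of libraries, and 0 passed, as did 0 of 17749 genes (0%). The median difference of the 8 was -0.08 on the log2 scale, beside -0.01 over all genes. C4b had 24.4, 25.3, 41.8 and 59.0 CPM in vehicle kidneys and 33.3, 39.6, 52.5, 52.9, 54.3 and 91.1 CPM in 7c kidneys, a difference of 0.52 ± 0.300 (log2, SE, unadjusted p = 0.107, adjusted p = 0.997 by edgeR). C9 had 0.501, 0.968, 1.64 and 1.71 CPM with vehicle and 0.0626, 0.321, 0.720, 0.787, 0.829 and 1.39 CPM with 7c, a difference of -0.80 ± 0.587. The groups overlapped for both genes. The other 6 lay between -0.26 ± 0.221 for Cfb and 0.06 ± 0.212 for C8a. No member had an unadjusted p under 0.05, which 2.61% of all genes had, and DESeq2, limma-voom and the likelihood ratio test called 0 of the 8. Without vehicle replicate 2 the unadjusted p was 0.00677 for Cfb, at -0.48, and 0.0139 for C4b, at 0.83, and neither passed after adjustment (adjusted p = 0.476 by edgeR for both). C9 is a hepatocyte product, and of 13 hepatocyte markers tested in kidney 9 had lower and 4 higher means with 7c, with a median difference of -0.18 and none past the threshold. An unadjusted p under 0.05 was reached by 5, all lower with 7c. Alb was at 34.4 ± 9.02 CPM in vehicle kidneys (SD, n = 4) and 16.3 ± 8.46 CPM in 7c kidneys (SD, n = 6). Apoa1 differed by -1.73 ± 0.553 and Ttr by -0.08 ± 0.333 (log2, SE). The lowest of the 13 differences was -2.99, and the highest was 0.58 ± 0.287, for Apoc3. Over all 14 markers the summed level was 2528 to 3031 CPM with vehicle and 2254 to 2961 CPM with 7c, most of it Cyp2e1, and the part of these markers in the C9 difference was not tested.

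The effect of 7c did not pass a test of difference between the tissues for any of the 8 members tested (adjusted p = 1.00 by edgeR; 0.00706% of 14163 genes passed, and 2.49% had an unadjusted p under 0.05, none of them a member). Liver minus kidney differences in effect were 0.49 ± 0.538 for C9, 0.47 ± 0.378 for Cfb and -0.22 ± 0.385 for C4b (log2, SE). Since C4b had the higher mean with 7c in both tissues and C9 the lower, their values are side by side in the plot of 7c effects, but neither tissue's value passed its own test.

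The other genes of the system were read from a list of 47. In liver 43 were tested and 0 passed, 23 with higher and 20 with lower means under 7c and a median difference of 0.00 on the log2 scale, beside 0.11 for the 9 members and 0.00 over all genes tested. All 8 genes of classical recognition and its proteases had slightly higher means, from 0.00 ± 0.272 for C1s2 to 0.17 ± 0.246 for C1qb, while 5 of 6 genes of lectin recognition and its proteases, 7 of 12 soluble regulators, 3 of 5 membrane regulators and 4 of 7 receptors had lower means and 3 of 4 further central and terminal components higher ones. C1s1, the classical protease gene with the highest CPM of the 8, was at 323 ± 24.5 CPM with vehicle (SD, n = 4) and 343 ± 57.6 CPM with 7c (SD, n = 6). Cd46, a membrane cofactor for factor I, differed by -0.93 ± 0.405 (log2, SE, adjusted p = 1.00 by edgeR). Cd46 was low, at 12 to 77 counts per liver. C7, the terminal component between C6 and C8, was at 0.146 to 1.74 CPM in liver and differed by 0.97 ± 0.601. Hc, which encodes C5, was abundant at 452 to 831 CPM and differed by -0.17 ± 0.171. Vtn (vitronectin, which binds the terminal complex), the soluble regulator with the highest CPM, was at 2057 to 2293 CPM with vehicle and 1939 to 2409 CPM with 7c, and Clu (clusterin) differed by -0.05 ± 0.0871. Cfp (properdin), Mbl1, Cr1l and Cd59a (an inhibitor of pore assembly) differed by 0.00 ± 0.227, -0.01 ± 0.0815, 0.02 ± 0.0897 and -0.04 ± 0.104. Vsig4, a complement receptor of resident macrophages, differed by -0.40 ± 0.372 and Itgb2, the beta chain of complement receptor 3, by 0.61 ± 0.396. Summed over 10 macrophage markers, vehicle livers had 139 to 384 CPM and 7c livers 178 to 333 CPM.

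In kidney 38 of the 47 were tested and 0 passed, 22 with higher and 16 with lower means, and 2, Vtn and Cfd, had an unadjusted p under 0.05. Over all 17749 genes tested in kidney, 2.61% had an unadjusted p under 0.05 by edgeR, and 8695 had higher and 9054 lower means. Vtn was at 0.698, 1.34, 1.73 and 2.01 CPM with vehicle and 0.0606, 0.267, 0.311, 0.420, 0.769 and 0.876 CPM with 7c, a difference of -1.70 ± 0.564 (log2, SE, adjusted p = 0.997 by edgeR). The hepatocyte marker values are those above, and their part in the Vtn value was not tested. Cfd, which encodes factor D or adipsin, the protease that cuts factor B and a known adipocyte product, was at 0, 1.44, 2.35 and 6.01 CPM with vehicle and 2.45, 3.39, 7.44, 12.1, 13.8 and 24.9 CPM with 7c, a difference of 2.14 ± 0.880 (log2, SE, adjusted p = 0.997 by edgeR). Beside it, all 7 adipocyte markers tested in kidney had higher means with 7c, 6 of them at an unadjusted p under 0.05 and none past the threshold, and the summed level of the 8 was 49.1 to 78.3 CPM with vehicle and 71.9 to 181 CPM with 7c; their part in the Cfd and C4b values was not tested. C2, the classical protease next to Cfb, was at 11.2 to 25.4 CPM in kidney and differed by 0.20 ± 0.234, and Clu was at 262 to 410 CPM and differed by 0.17 ± 0.131.
Between tissues 44 of the 47 were tested, 38 higher in liver and 2 higher in kidney, C7 by 1.84 ± 0.361 and Itgax by 2.09 ± 0.468 (log2, SE). Some of the 38, such as Colec10 with 0 counts in kidney, entered only through the livers where they are high. Cfd was left out by the filter, and was at most 0.129 CPM in liver and up to 24.9 CPM in kidney. All 8 classical genes, each of which passed in both tissues, were higher in liver. Of the terminal pathway, C6, C8b, C9 and Hc thus had almost no kidney mRNA beside their liver level, with Hc at 0.0270% of it, while C7 was more abundant in kidney.

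Acute phase genes and regulators of hepatic transcription were read beside the members. Of 20 acute phase genes in liver, 13 had higher means with 7c, 0 passed and 2 had an unadjusted p under 0.05, Lcn2 and Orm2. In kidney 14 were tested, 4 with higher and 10 with lower means, a median of -0.18, 0 past the threshold and 2 at an unadjusted p under 0.05. Over all genes tested, 3.76% in liver and 2.61% in kidney had an unadjusted p under 0.05 by edgeR. Means were higher with 7c for 7563 of 15012 genes in liver and 8695 of 17749 in kidney. In liver Fga, Fgb and Fgg, the fibrinogen chains and the 3 with the highest CPM there, differed by -0.03 ± 0.114, -0.04 ± 0.0999 and -0.03 ± 0.100. Lcn2 was at 1.20 to 1.52 CPM in vehicle livers and 1.88 to 4.31 CPM in 7c livers, so the liver groups did not overlap, at 1.07 ± 0.299 (log2, SE, adjusted p = 1.00 by edgeR). Its kidney groups overlapped, at 0.628 to 3.58 CPM with vehicle and 0.648 to 4.88 CPM with 7c. Orm2 differed by 0.52 ± 0.214 and Hpx by 0.20 ± 0.0955 in liver. Of 16 upstream regulators 0 passed in liver, and 3 had an unadjusted p under 0.05, Cebpb at 0.68 ± 0.228, Cebpd at 0.51 ± 0.238 and Rora at -0.25 ± 0.115 (log2, SE, adjusted p = 1.00 by edgeR for each). Cebpb and Cebpd encode C/EBP factors, and Rora a nuclear receptor. In kidney 0 of 15 passed and 1 had an unadjusted p under 0.05, Cebpb at 0.55 ± 0.205 (log2, SE, adjusted p = 0.997 by edgeR). One 7c liver, replicate 6, held 606 CPM of 5 skeletal muscle markers where the other 9 livers held at most 1.79, and without it the liver difference of each member kept its direction.

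Livers of 1 group differed from each other to different degrees by gene. The SD within groups of log2 CPM was 0.112 for Cfi, lower than all but 5.03% of the 15012 genes tested in liver, 0.144 for C8b (12.4%) and 0.180 for Mbl2 (23.0%), and 0.520 for Cfb (71.3%), where the median over genes was 0.302. Median counts per liver were 17984 for Cfi, 12593 for C8b, 12096 for Mbl2 and 144 for Cfb. These ranks were not adjusted for depth. The abundant C9 spanned 2.00 times and C6 2.08 times from the lowest to the highest liver. C4a, the C4 paralog, spanned 5.40 times in liver and was above 89.7% of genes in spread, against 2.21 times and 55.8% for C4b. In kidney C9 was the most variable of the 8 members tested there, with an SD of 1.13 above 95.5% of genes at 2 to 64 counts per library.

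**Figure D4:**
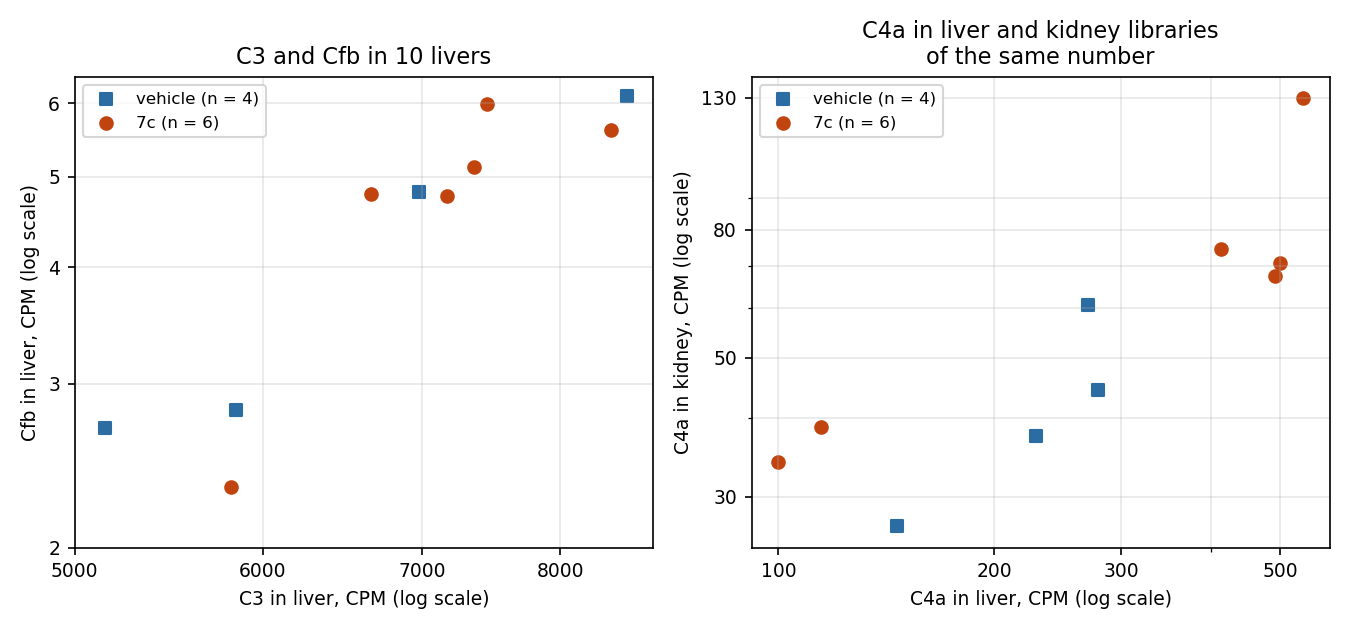
Left, C3 against Cfb in the 10 livers; right, C4a in each liver against C4a in the kidney of the same treatment and number; all axes are CPM on log scales, squares are vehicle (n = 4) and circles 7c (n = 6). The 3 livers with the least Cfb are the 3 with the least C3, and the livers with the most C4a match the kidneys with the most C4a.

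Members varied together across livers in 1 of 36 pairs. C3 and Cfb passed a permutation test adjusted over the 36 (adjusted p = 0.0133), and 5 pairs had an unadjusted p under 0.05. For Cfb the livers fell apart into 3 at 2.33 to 2.81 CPM and 7 at 4.77 to 6.10 CPM, and the 3 low livers, 1 from 7c and 2 from vehicle, were also the 3 lowest in C3. The adjusted test above ran over all 10 livers and takes in this division, so r is given within the 7 others only, where Pearson r was 0.81 and Spearman rho 0.86. These are descriptions with no test, since the pair and the division were both picked on these livers. The pair did not pass without vehicle replicate 2, the liver with the most of both (adjusted permutation p = 0.0594). C8a and C8b reached r = 0.68 and rho = 0.59 over the 10 livers (permutation p = 0.0310 and 0.0802, adjusted p = 0.223 and 0.476), and r = 0.21 without the 2 livers farthest from the median. Over 15003 other genes, those most like C3 across livers were Prpf8 (r = 0.94) and Cenatac (r = 0.92), and those most like C9 were Cisd2 (r = 0.92), Pkib (r = 0.92) and Fgb (r = 0.91), all over the same 10 libraries and given as a description.

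For 5 members and C4a, liver and kidney libraries of the same treatment and number were compared. C4a rose together in both tissues (Pearson r = 0.86, permutation p = 0.00141, adjusted p = 0.00846; Spearman rho = 0.89, permutation p = 0.00110, adjusted p = 0.00660; r = 0.88 on deviations from the treatment means; r = 0.91 without the 2 livers farthest from the median). The livers with 539, 500, 493 and 414 CPM had kidneys with 130, 71.0, 67.5 and 74.5 CPM, and the livers with 99.8, 115 and 146 CPM had kidneys with 34.1, 38.8 and 26.9 CPM. The 4 highest livers were all from 7c and 2 of the 3 lowest were too, and C4a differed between 7c and vehicle by 0.64 ± 0.434 in liver and 0.71 ± 0.342 in kidney (log2, SE, adjusted p = 1.00 and 0.997 by edgeR). C4b was the next, at r = 0.63 and rho = 0.75 (permutation p = 0.0498 and 0.0171, adjusted p = 0.126 and 0.0513), and did not pass. C3, Cfb, Cfi and C8a did not pass either, with r from -0.61 to -0.02 (adjusted permutation p of 0.126 or more). Within a tissue C4b followed C4a, at r = 0.72 and rho = 0.75 in liver and r = 0.94 and rho = 0.87 in kidney (permutation p = 0.0188, 0.0171, 0.000130 and 0.00232; adjusted over the 2 tissues 0.0188, 0.0171, 0.000260 and 0.00464), falling to r = 0.58 and 0.86 without the 2 libraries farthest from the median. The part that reads shared by the 2 genes have in this relation was not tested.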

How the data were processed

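Stranded polyadenylated RNA libraries of 10 livers and 10 kidneys were sequenced; the authors aligned reads to GRCm39 with STAR 2.7.11b and counted them per gene with featureCounts 2.0.6, and deposited raw counts. Annotation release, strand setting and treatment of multi-mapped or overlapping reads are not given in the sources used here. All 20 columns were mapped to samples by their labels. Coordinates, lengths and overlaps came from GENCODE vM39, which matched 56310 of 57010 genes. The members and all gene lists were chosen with earlier results of these data known.

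Genes with at least 10 counts in 50% of the libraries of a tissue were tested with edgeR 4.0.16 in R 4.3.3 (TMM, quasi-likelihood F-test, treatment as the only term, Benjamini-Hochberg, threshold 0.05). The interaction used genes passing in both tissues, and liver against kidney used all 20 libraries in 4 groups. The code was tested on simulated counts. Log2 CPM for spread and correlations had a prior count of 2, and correlations 100000 permutations. Exact tests of single genes used CPM + 1 on a log2 scale and cannot go below p = 0.00476, and those of neighbouring genes (pseudocount 0.01 RPKM) not below 0.00195. Named genes were the members; of other complement genes, per role the most abundant in each tissue, and per tissue the 3 with the smallest p; of acute phase genes the 3 most abundant and the 3 with the smallest p in liver; the first 3 of each marker list; and the 3 genes most like C3 and C9. Others named (C1s2, C1qb, C8g, Itgax, Cyp2e1, Apoc3, Cebpb, Cebpd, Rora, Colec10) were picked after their values were seen. Some genes that the rule selects are not reported here. Replicates are separate libraries numbered in the labels, taken as separate mice per the labels. Alternatives were RLE scaling, DESeq2 1.42.0, limma-voom (limma 3.58.1), a likelihood ratio test, other filters, a replicate block and leaving out each library. Depth limits C8b, Mbl2, C6 and C9 in kidney, at 27, 186, 186 and 346 counts over 10 libraries, and covers counting error only.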

Additional observations from a re-analysis of the deposited data

Results flagged for a closer look

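In 36 groups of 4 or 6 libraries (9 members, both tissues, both treatments) the lowest or highest library was compared with the rest by Dixon's ratio, and 7 stood apart; chance gives about 1 in 20. In liver, Cfb in 7c replicate 1 was at 2.33 CPM, with 4.77 CPM the next value, and C9 in vehicle replicate 3 was at 467 CPM, with 891 CPM the next. In kidney, C3 in 7c replicate 5 was high at 62.5 CPM (next 42.8), C4b in 7c replicate 1 high at 91.1 CPM (next 54.3), and Cfi in 7c replicate 5 low at 4.01 CPM (next 6.03). C6 in vehicle kidney replicate 2 was high at 1.06 CPM (next 0.418), and C8b in vehicle kidney replicate 1 was high at 0.314 CPM (next 0.0535), the latter from 12 and 2 counts. Without vehicle replicate 3 the C9 difference between 7c and vehicle livers was -0.45 (log2; unadjusted p = 0.0169, adjusted p = 1.00 by edgeR). Without 7c replicate 1 the kidney C4b difference was 0.31. Summed over 5 blood markers, the flagged kidneys had 2259 CPM (7c replicate 5), 2233 (7c replicate 1), 1309 (vehicle replicate 2) and 402 (vehicle replicate 1). The other kidneys had 308 to 919 CPM. All 5 blood markers had higher means with 7c in kidney, with a median difference of 0.84 (log2), and 0 passed the threshold. The part of blood in the flagged values and in the kidney C4b difference was not tested.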

How the results depend on the processing

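Of 103 recalculated counts for the 7 comparisons, 100 stayed within 1.5 times the reported count. The exceptions were the pairs of members that varied together, 1 as reported and 0 to 2 with a liver left out: 0 without vehicle replicate 2, and 2 without 7c replicate 6 (C3 with Cfi added) or vehicle replicate 3 (Mbl2 with C6 added). Members past the threshold were 0, 0 and 0 for 7c in liver, in kidney and for their difference under every alternative run. For liver against kidney the 8 members measured in both tissues passed under every alternative run, and C8b, which entered only through the livers, is not counted. Over all genes, the counts for 7c in liver were 1 as reported, 6 with DESeq2, 7 with the likelihood ratio test, 4 with no filter, 2 with filterByExpr, 4 with both tissues in 1 fit and 0 with the replicate block. In kidney they were 0 as reported, 18 with DESeq2, 14 with the likelihood ratio test, 2 with limma-voom, 3 with no filter and 18 with both tissues in 1 fit, and for the difference between tissues 1 as reported, 16 with DESeq2, 11 with no filter, 0 with limma-voom and 0 with the block; the cause was not tested. 

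Of 570 recalculated differences of single members 23 changed sign, none of them past the threshold before or after. With 1 library left out, the liver difference of C6 ran from -0.272 to 0.0237 (log2). The other liver differences kept their sign, but those of C3 ran from 0.00589 to 0.257, of Cfb from 0.0600 to 0.476, of Mbl2 from 0.0530 to 0.186, of C4b from 0.195 to 0.425, of Cfi from 0.0984 to 0.178, of C8a from -0.180 to -0.0244, of C8b from -0.113 to -0.0203 and of C9 from -0.449 to -0.178. The kidney differences ran from -0.34 to 0.11 for Mbl2, -0.22 to 0.20 for C3, -0.22 to 0.11 for Cfi, -0.42 to 0.35 for C6 and -0.0523 to 0.245 for C8a, and kept their sign for C9 (-1.12 to -0.565), C4b (0.312 to 0.832) and Cfb (-0.478 to -0.132). The differences between tissues ran from -0.0338 to 0.467 for Mbl2, -0.458 to 0.00413 for C4b, -0.16 to 0.49 for C3, -0.0148 to 0.330 for Cfi, -0.42 to 0.38 for C6 and -0.368 to 0.0420 for C8a. Those of C9 and Cfb kept their sign and ran from 0.0702 to 0.842 and from 0.175 to 0.968, with Cfb highest without vehicle replicate 2. With the replicate number as a block, the liver difference of C9 was -0.0873, of C8b -0.0352, of C6 -0.220 and of C8a -0.155, and the kidney difference of Cfi was 0.0939, of Cfb -0.120, of C6 -0.522, of C3 -0.182, of Mbl2 -0.408 and of C8a 0.185, and no member's call changed. The numbers did not pair 7c with vehicle libraries (r of deviations from -0.05 to 0.21). Liver and kidney libraries of the same number had r from 0.01 to 0.26, and 8 of 10 livers correlated best with the kidney of their own number, a hint from the data that the labels do not give. Depth limits the kidney values of C8b, Mbl2, C6 and C9. An alternative length for Cfb was chosen after seeing the data.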
